A study of Bos taurus with 2 samples.

Results

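In single cells of day 25 bovine chimeric embryos, 781 of 4159 kept barcodes met a rule built on 5 genes: TRPM3, SAMD5, FOXP2, KIF26B and GRM8. A barcode stands for 1 captured droplet, usually 1 cell, and a UMI (unique molecular identifier) for 1 captured transcript. A member had at least 1000 UMI and at least 500 genes, at least 4 UMI of the 5 genes together with at least 3 of them detected, and fewer than 4 UMI of RSPO1, RSPO2 and RSPO3 together. The 5 genes and the limits were taken from earlier results on these same cells, so the levels of these 8 genes are described here and not tested.

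The embryos had bovine embryonic stem cells incorporated, were flushed at day 25, dissociated with papain and sorted before droplet capture with 3' chemistry. There was 1 group of 2 libraries, called replicate 1 and replicate 2, and both arms of every comparison, members and other barcodes, carry the same treatment and age. Breed, the stem cell line, the sort gate, the number of embryos pooled and whether the libraries came from separate embryos are not given in the sources used here. A GFP transcript was counted, and what it marks is not given there either.

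Early in brain and spinal cord development, neural progenitors line the neural tube, divide and give rise to neurons. SOX2, NES and RFX4 are textbook genes of such progenitors. FOXA2 and SHH, a transcription factor and a secreted signal, mark the ventral midline, or floor plate, in mouse and chick, whereas PAX3 marks the dorsal side. FOXP2 encodes a forkhead transcription factor of developing brain, GRM8 an inhibitory metabotropic glutamate receptor, KIF26B a kinesin-family protein, SAMD5 a protein with a SAM domain and TRPM3 a cation channel. The R-spondins RSPO1, RSPO2 and RSPO3 are secreted enhancers of WNT signalling.

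Replicate 1 held 11182089 UMI over 1973 barcodes, a median of 4889 each, and replicate 2 held 15427708 UMI over 2464 barcodes, a median of 5601. A set of 6 barcode sequences occurred in both libraries, and 1 of these barcodes was a member. No doublet caller was run, so doublets may remain among members, whose deepest barcode had 16394 UMI. Globin RNA was present throughout. HBZ, an embryonic globin gene, had a UMI in 83.3% and 85.8% of members in replicates 1 and 2. The other kept barcodes had one in 82.9% and 81.9%. Whether this was free RNA captured along with the cells was not tested. As a rough gauge of RNA that may be free, 9 and 19 barcodes with at least 20% globin UMI are set beside shares of barcodes below. They are called globin-rich here and had median depths of 27366 and 26933 UMI.

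Members numbered 336 of 1843 kept barcodes in replicate 1, a share of 18.2% (exact Clopper-Pearson 95% interval 16.5 to 20.1). In replicate 2 they numbered 445 of 2316, or 19.2% (17.6 to 20.9), which gave a mean of 18.7% ± 0.695 (SD, n = 2). These intervals cover counting error only. The share moved with depth: it was 10.2% and 9.0% among barcodes under 3000 UMI and 23.5% and 24.2% among those from 6000 to under 12000 UMI. When each barcode was thinned to 2000 UMI before the rule was applied, the share was 8.35% and 6.95%. Since the rule asks for a number of UMI, the share describes these barcodes at these depths and not a proportion of cells in the embryo. The sort could also set it.

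**Figure D1:**
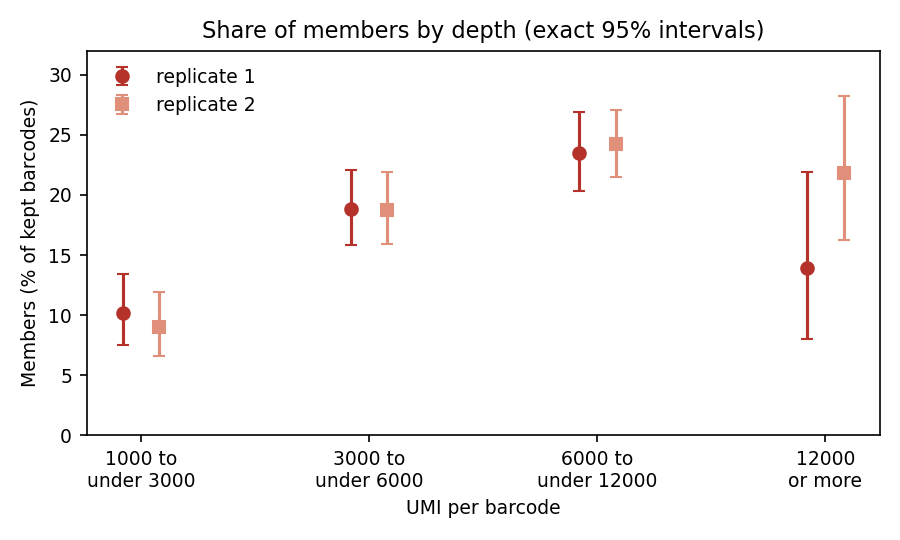
Members as a percentage of kept barcodes in 4 bins of UMI per barcode, for replicate 1 (circles) and replicate 2 (squares), with exact 95% intervals. Both libraries were lowest in the bin under 3000 UMI, at 10.2% and 9.0%, and replicate 1 was at 13.9% in the deepest bin, which holds 108 barcodes.

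The working name of these cells includes TRPM3, and the data go against it. TRPM3 had a UMI in 8 of 336 members in replicate 1 and 18 of 445 in replicate 2, or 2.38% and 4.04%, against 3.12% and 2.62% of the other kept barcodes. Its level was 4.09 and 9.73 CPM (UMI of the gene per 1000000 UMI of the group) in members, against 24.4 and 21.2 CPM in the others. Barcodes with at least 4 UMI of the R-spondins, which the rule leaves out, held 195 and 119.8 CPM. They are part of the others and held 186 of their 217 TRPM3 UMI in replicate 1 and 219 of 255 in replicate 2. Under the same R-spondin limit TRPM3 was not lower in members. It was at 4.52 and 7.32 CPM in SOX2-positive members and 3.35 and 1.64 CPM in other SOX2-positive barcodes. So the members are named here by the other genes, FOXP2, SAMD5, KIF26B and GRM8.

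FOXP2 supplied 57.0% and 58.3% of all UMI that counted towards the rule. It had a UMI in 96.4% and 96.2% of members with a median of 7 UMI, against 40.2% and 42.2% of the other kept barcodes. Its level was 1561 and 1352 CPM in members and 327 and 365 CPM in the others. SAMD5 was at 358 and 303 CPM in members and 60.7 and 93.0 CPM in the others, and KIF26B at 357 and 261 CPM against 78.3 and 64.6 CPM. GRM8 was at 458 and 393 CPM in members and 134.5 and 118.5 CPM in the others. GRM8 also had a UMI in 7 of 9 and 14 of 19 globin-rich barcodes, at 128 and 104 CPM, which is close to its level in the other kept barcodes. FOXP2 had one in 1 of these 28 barcodes, and SAMD5 and KIF26B in 0 of 28, which allows up to 10.7% of such barcodes to have a UMI. At an equal depth of 2000 UMI, GRM8 had a UMI in 49.4% and 45.2% of members and in 11.1% and 10.5% of globin-rich barcodes. The greater depth of globin-rich barcodes before thinning made a low share there likely.

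The members were not alike in which genes admitted them. SAMD5, FOXP2, KIF26B and GRM8 were all detected in 118 members of replicate 1 and 144 of replicate 2, or 35.1% and 32.4%, and no member had all 5 genes of the rule. Trios that included FOXP2 made up most of the rest, the commonest being FOXP2 and SAMD5 with KIF26B in replicate 1 (79 members) and with GRM8 in replicate 2 (111 members). The summed UMI of the 5 genes had a median of 13 in both libraries, with quartiles of 8 and 23 in replicate 1 and 8 and 22 in replicate 2. Just inside the limit, 14 and 26 members had a sum of exactly 4. Just outside it, 10 and 14 barcodes had 3 genes and a sum of 3, and 263 and 371 barcodes had at least 4 UMI from only 2 of the genes. The R-spondin limit left out another 33 and 64 barcodes.

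**Figure D2:**
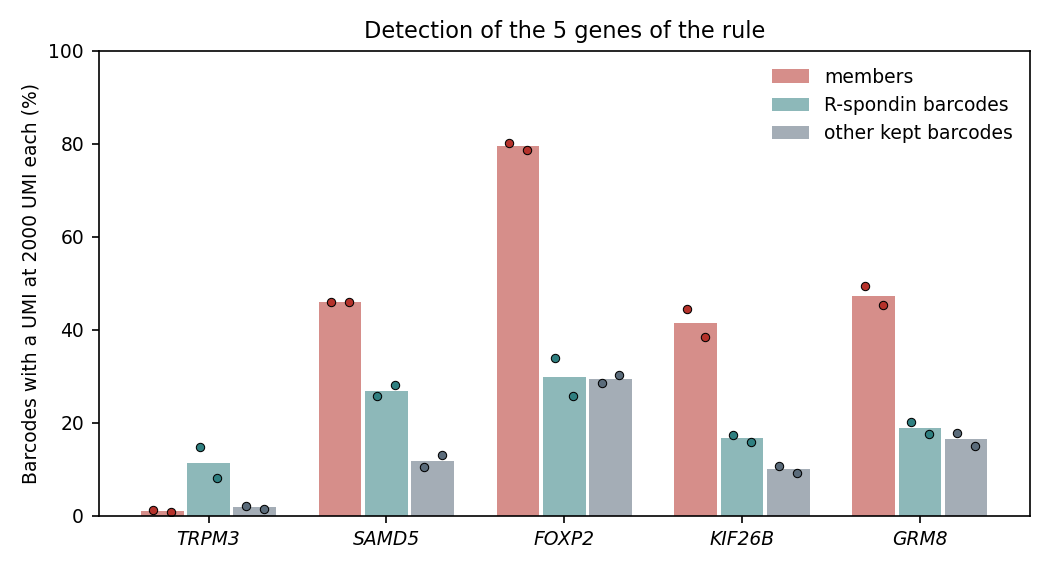
Percentage of barcodes with a UMI of each gene of the rule after thinning to 2000 UMI, in members, R-spondin barcodes and other kept barcodes; bars are means of the 2 libraries, points the libraries, and R-spondin barcodes are also part of the other kept barcodes. FOXP2 stood at 80.2% and 78.7% in members, and TRPM3 at 1.23% and 0.696%, below its 14.7% and 8.19% in R-spondin barcodes.

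Members carried the neural progenitor genes SOX2, NES and RFX4, though as many genes of the progenitor list fell as rose, as given below. SOX2 had a UMI in 61.6% and 71.9% of members and 52.9% and 55.2% of the other kept barcodes, and NES in 89.3% and 91.5% of members and 74.9% and 73.5% of the others. RFX4 had one in 75.3% and 78.4% of members against 55.4% and 58.4% of the others. At an equal depth of 2000 UMI the shares for SOX2 were 35.8% and 40.4% in members and 33.0% and 35.5% in the others. Globin-rich barcodes had SOX2 in 0 of 9 and 2 of 19 at full depth, RFX4 in 1 of 9 and 0 of 19, and NES in 5 of 9 and 8 of 19. At 2000 UMI, NES was detected in 70.1% and 73.8% of members and 54.4% and 55.3% of the others. Globin-rich barcodes had it in 0% and 5.26%, low shares that their greater depth before thinning made likely. By the SOX2 shares above, many of the other kept barcodes are SOX2-positive too. Comparisons below are given first with all of them and then among SOX2-positive barcodes alone.

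For every gene, UMI were summed per library over members and over the other barcodes and compared with edgeR's quasi-likelihood test, in which library entered as a block. A gene was called at a Benjamini-Hochberg adjusted p under 0.05 with the same direction in both libraries. With 2 libraries the fit has 1 residual degree of freedom and leans on a spread shared across genes. The p-values therefore concern members and other barcodes of these 2 libraries, not embryos. That shared spread counted for a median of 638 degrees of freedom against all other kept barcodes. It counted for 10.3 in the later comparison with matched barcodes, 20.0 among SOX2-positive barcodes and 12.5 with R-spondin barcodes. The p-values of different comparisons are therefore not on 1 scale. Because the 5 genes were chosen on these cells, genes that vary with them were likely to differ. Against all other kept barcodes, 1356 of 13411 tested genes were called higher (10.1%) and 1423 lower (10.6%), or 20.7% in either direction. DESeq2 called 235 higher and 348 lower, and edgeR without the library term 317 and 662.

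Genes of the ventral midline were high in members. None was part of the rule, but FOXP2, which supplied most of its UMI, went with FOXA2 outside members too. Among other kept barcodes, FOXP2 had a UMI in 66.8% and 74.1% of those with FOXA2 and 29.7% and 28.6% of those without. A rise of FOXA2 was therefore likely under the rule. FOXA2 stood at 436 and 430.2 CPM in members, against 130.5 and 134 CPM in the other kept barcodes, a log2 fold change of 1.75 ± 0.076 (SE, adjusted p = 2.23e-82, edgeR). Both member libraries were more than 3 times above both libraries of the others. FOXA2 had a UMI in 73.2% and 74.8% of members and 28.4% and 29.8% of the others, and at 2000 UMI in 50.6% and 51.7% of members and 17.5% and 18.0% of the others. Globin-rich barcodes had it in 2 of 9 and 2 of 19 at full depth. At 2000 UMI none of them had it, which their greater depth before thinning makes likely. SHH stood at 76.3 and 98.2 CPM in members and 34.2 and 38.1 CPM in the others (log2 fold change 1.32 ± 0.115 SE, adjusted p = 1.17e-25, edgeR).

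SHH was detected mostly where FOXA2 was, in members and in the other kept barcodes alike. Of members with a FOXA2 UMI, 67 of 246 in replicate 1 and 112 of 333 in replicate 2 also had SHH, or 27.2% and 33.6%. Of members without FOXA2, 3 of 90 and 20 of 112 had SHH, or 3.33% and 17.9%. The other kept barcodes had SHH in 21.0% and 27.6% of those with FOXA2 and 2.69% and 3.50% of those without. Members without FOXA2 were shallower, with median depths of 4950.5 and 5394 UMI against 6624 and 7827 UMI in those with it. SLIT1, ADAMTS18 and NWD2, described below, were called higher when every barcode with a FOXA2 or SHH UMI was left out of both arms, which left 87 and 92 members.

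The list of intermediate and ventral neural tube genes held 15 tested genes, of which 6 were called higher and 2 lower. Among all tested genes 10.1% were called higher and 10.6% lower. The list had a median log2 fold change of 0.25, against 0.02 over all genes. NTN1, a midline guidance cue, was at 86.3 and 83.0 CPM in members and 55.9 and 59.1 CPM in the others. DESeq2 did not make that call, and edgeR did not make it against matched barcodes (adjusted p = 0.0659) or among SOX2-positive barcodes (adjusted p = 0.16). PTCH1, the SHH receptor, differed little, at 188 and 159 CPM in members and 161 and 139 CPM in the others, and HHIP, an inhibitor that binds SHH, was at 79.0 and 67.5 CPM in members and 104 and 82.9 CPM in the others. DESeq2 called neither of these genes. OLIG2, a motor neuron progenitor gene chosen after its values were seen, had a UMI in 0 of 336 and 0 of 445 members, which allows up to 0.893% and 0.674% of barcodes to have a UMI and sets no limit on cells that express it. It was rare throughout, with a UMI in 2 of 1507 and 5 of 1871 other kept barcodes.

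Of 18 tested dorsal neural tube genes 2 were called higher and 4 lower, against 10.1% and 10.6% of all tested genes. PAX3 fell: it was at 46.3 and 47.7 CPM in members and 151 and 126 CPM in the others (log2 fold change -1.49 ± 0.105 SE, adjusted p = 1.16e-37, edgeR). BMP7, a dorsal signal, was at 5.45 and 4.56 CPM in members and 16.3 and 18.9 CPM in the others, and was not called among the SOX2-positive barcodes described below. BMP5 and LMX1B were the genes called higher, at 14.1 and 9.12 CPM in members against 5.40 and 4.90 CPM for BMP5, and at 12.3 and 17.9 CPM against 11.7 and 9.47 CPM for LMX1B. DESeq2 called neither of the rises.

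Genes of position along the head-to-tail axis were few and low. For the counts that follow, 10.6% of all tested genes were called lower. Of 12 tested forebrain and midbrain genes 3 were called lower: SIX6, an eye and forebrain gene, was at 2.27 and 3.95 CPM in members and 18.9 and 15.0 CPM in the others, OTX2 at 4.09 and 5.17 CPM in members and 14.2 and 11.8 CPM in the others, and PAX2 at 0.908 and 0 CPM in members and 2.70 and 1.91 CPM in the others. DESeq2 made 1 of these calls. By edgeR, OTX2 was not called against matched barcodes (adjusted p = 0.299) or among SOX2-positive barcodes (adjusted p = 0.0821), whereas SIX6 was called lower in both. R-spondin barcodes, which the rule leaves out, held 57 of the 126 and 68 of the 142 OTX2 UMI of the others. TCF7L2 was at 241 and 209 CPM in members and 226 and 192 CPM in the others and was not called. Rostral HOX genes were present in members: HOXB2 was at 25.0 and 30.7 CPM, against 38.2 and 42.6 CPM in the others, and HOXA2 at 22.3 and 23.4 CPM, against 34.8 and 32.3 CPM. Of 8 tested hindbrain genes 3 were called lower, HOXB2 and HOXA2 among them, and DESeq2 called 0. With edgeR, HOXB2 and HOXA2 were both called lower against matched barcodes. Neither was called among SOX2-positive barcodes (adjusted p = 0.164 and 0.0953, edgeR). HOX genes of the trunk and tail were nearly absent from members, with a summed level over 18 genes of 2.27 and 0.608 CPM in members and 19.2 and 23.6 CPM in the others. All 5 of them that could be tested were called lower by edgeR and none by DESeq2. HOXC8 had 0 UMI in members and 69 in the others. With 3 counts taken as the floor for both libraries together, it was at least 6.04-fold lower.

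**Figure D3:**
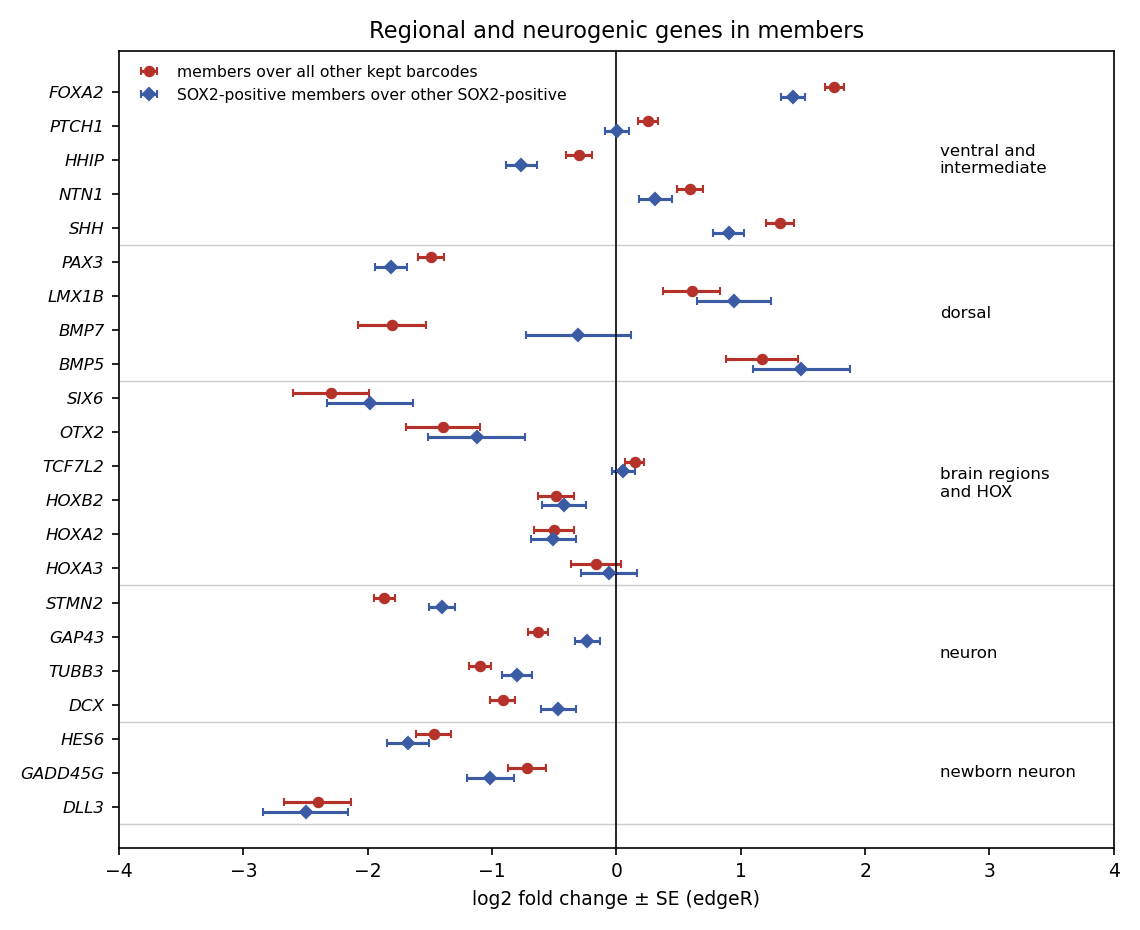
log2 fold change ± SE (edgeR) of list examples and SHH in members over all other kept barcodes (circles) and in SOX2-positive members over other SOX2-positive barcodes (diamonds), for genes tested in both. FOXA2 and SHH lie right of 0 and PAX3, STMN2 and DLL3 left of it in both comparisons, which share their libraries.

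The rule for named genes gave 14 rises, and FOXA2 and SHH were among them. The others are signals, enzymes and transcription factors with no single textbook role in common. ADAMTS18, a secreted metalloprotease, was at 88.6 and 117 CPM in members and 25.4 and 29.2 CPM in the other kept barcodes (log2 fold change 1.96 ± 0.116 SE). SOX6, a transcription factor, was at 482 and 445 CPM in members and 183 and 213 CPM in the others (1.27 ± 0.077). CMTM8 was at 351 and 340.5 CPM in members and 139 and 149 CPM in the others (1.30 ± 0.076). In each of these genes the member libraries stood above both libraries of the others, as was likely in genes picked for large rises.

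NWD2 was at 105 and 66.3 CPM in members and 26.1 and 22.4 CPM in the others. PDE5A, which breaks down cyclic GMP, was at 104 and 126 CPM in members and 44.0 and 40.0 CPM in the others, and FREM2, a basement membrane protein, at 147 and 131 CPM against 49.7 and 53.5 CPM. ANGPT1, the ligand of the TEK receptor, was at 153 and 121 CPM in members and 59.1 and 51.2 CPM in the others. These genes, with SPHKAP, PPM1H and EYA4, had log2 fold changes of 1.34 to 1.82. CATHL5, an antimicrobial peptide gene, had the largest rise, at 60.9 and 90.0 CPM in members and 16.0 and 19.5 CPM in the others (2.13 ± 0.133 SE). Members with a FOXA2 UMI held 74.9 and 112 CPM of it, and members without 13.8 and 4.41 CPM. With FOXA2 or SHH barcodes left out of both arms, CATHL5 had a log2 fold change of 1.57 and was not called. It belongs to a family of near-identical cathelicidin genes whose reads could be split or shared in counting, so its level is uncertain. All 14 were called by DESeq2 as well. The same direction in each library was a condition of the call, so it adds nothing to it.

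**Figure D4:**
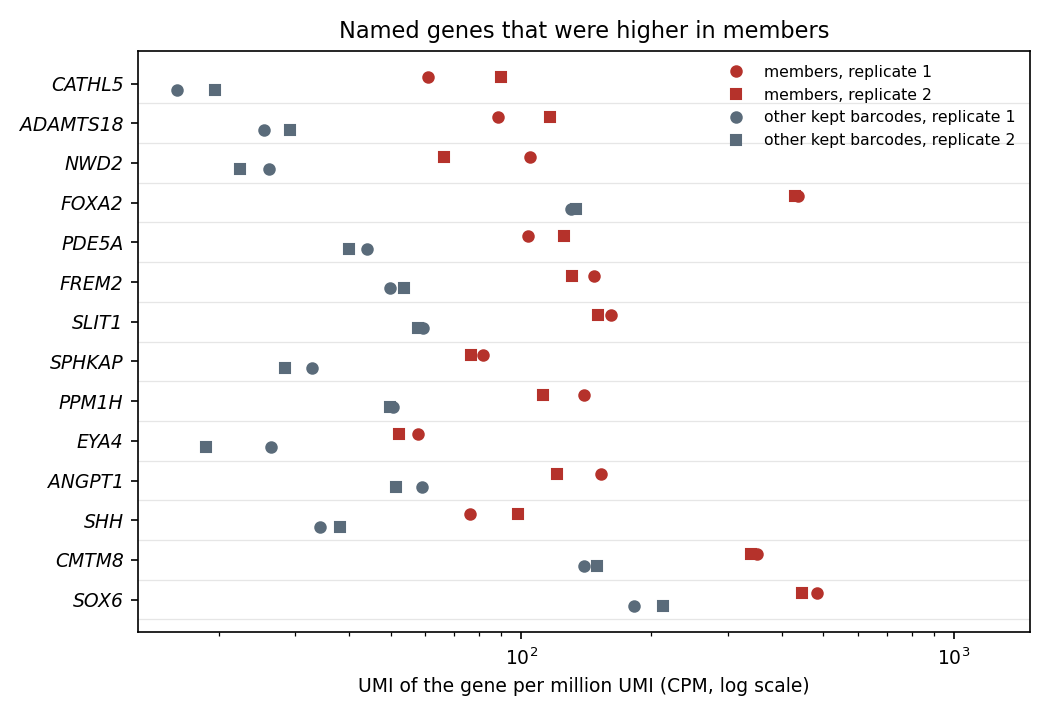
CPM, on a log axis, of the 14 named genes that were higher in members (upper symbols of each row) than in other kept barcodes (lower symbols), with 1 symbol per library. In every gene both member libraries lie right of both libraries of the other kept barcodes, as was likely in genes picked for large rises. FOXA2 was at 436 and 430.2 CPM against 130.5 and 134 CPM.

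Axon guidance genes moved in both directions, with 11 of 33 called higher and 13 lower, against 10.1% and 10.6% of all tested genes. SLIT1 and SLIT2 encode ligands that repel growing axons through ROBO receptors. SLIT1 was at 162 and 150.2 CPM in members and 59.2 and 57.8 CPM in the others (log2 fold change 1.45 ± 0.093 SE), and SLIT2 at 819 and 753 CPM against 416 and 452 CPM (0.90 ± 0.086). UNC5C, a netrin receptor, was at 1162 and 838 CPM in members and 714 and 622 CPM in the others. The receptor ROBO2 was lower, at 284 and 213 CPM in members and 406 and 367 CPM in the others, as was ROBO1, which DESeq2 did not call. Without barcodes that held FOXA2 or SHH UMI, neither was called and the log2 fold change was above 0, at 0.29 for ROBO2 and 0.54 for ROBO1. Of 42 cell adhesion genes 19 were called lower and 4 higher, CTNNA2 falling to 807 and 578 CPM in members, against 1400.0 and 1159 CPM in the others.

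Signalling lists were mixed, where 10.1% of all tested genes were called higher and 10.6% lower. Notch pathway genes had 6 rises and 5 falls among 18, WNT genes 7 and 8 among 34, and FGF and retinoic acid genes 4 and 5 among 17. ZNRF3, a membrane ligase that curbs WNT receptors and is itself blocked by R-spondins, was at 387 and 326 CPM in members and 216 and 202 CPM in the others. MAML2 and MAML3, co-activators of Notch, were at 1283 and 1236 CPM and at 431 and 423 CPM in members, against 833 and 799 CPM and 311 and 288 CPM in the others. FGF14, an intracellular FGF-family protein of neurons, was lower, at 127 and 100.9 CPM in members and 270.1 and 183 CPM in the others. Among relatives of the 5 genes of the rule, 7 of 18 were called higher and 2 lower, with FOXP1 at 1144 and 931 CPM in members and 654 and 566 CPM in the others (log2 fold change 0.80 ± 0.091 SE).

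Neuronal genes were lower in members. Of 18 tested neuron genes 11 fell and the other 7 were not called, with a median log2 fold change of -1.25. All tested genes together had 10.1% called higher and 10.6% lower. STMN2, a neuronal microtubule protein, was at 180.3 and 161 CPM in members and 582 and 693 CPM in the others. Genes of newly committed neurons fell in 9 of 10 cases, DLL3 being at 9.99 and 3.04 CPM in members and 28.0 and 35.7 CPM in the others. DESeq2 called 10 of the neuron falls and 3 of the newborn neuron falls. Of 19 neural progenitor genes 6 rose and 6 fell. NES was at 888 and 889 CPM in members and 572 and 571 CPM in the others, and RFX4 at 436 and 403 CPM against 296 and 300 CPM, while SOX2 was not called, at 232 and 270.3 CPM in members and 248 and 248 CPM in the others. Chosen after their values were seen, HES5 and PAX6, both progenitor genes, were lower, HES5 at 38.6 and 29.8 CPM in members and 102 and 106 CPM in the others and PAX6 at 88.1 and 76.0 CPM against 139.9 and 112 CPM.

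The named falls were led by genes of other tissues. PAG2, a placental gene, was at 1.36 and 0.304 CPM in members and 173 and 51.4 CPM in the others, and COL1A1, a collagen of mesenchyme, at 19.1 and 47.7 CPM against 457 and 736 CPM. S100G, PAGE4, MYL7, KLK1, A2M, COL1A2, S100A10 and AEBP1 completed them, with log2 fold changes of -6.73 to -3.46. The summed level of 12 erythroid genes was 604 and 649 CPM in members and 13186 and 23409.8 CPM in the others. Most of the others' value came from few barcodes: the 9 and 19 globin-rich barcodes held 94.5% and 96.9% of the HBZ UMI of the others. Without them the erythroid sum of the others was 749.7 and 751 CPM, and HBZ was not called. The 13 mesenchyme genes summed to 163 and 344 CPM in members and 1691 and 2757 CPM in the others. R-spondin barcodes, which are part of the others, had sums of 8136 and 10169 CPM. They held 2200 of the 4061 and 5384 of the 8857 COL1A1 UMI of the others. COL1A1 had a UMI in similar shares of barcodes, 9.52% and 15.5% of members and 11.9% and 15.9% of the others. Trophoblast genes summed to 78.6 and 55.9 CPM in members, almost all of it PAG1 at 68.1 and 51.4 CPM, and to 516 and 248 CPM in the others, with 4 and 3 of 11 genes at 0 in members.

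Members differed from the other kept barcodes in depth and in their share of ribosomal protein transcripts. Their median was 6197.5 and 7146 UMI, against 5018 and 5625 UMI, and the median ribosomal share was 4.38% and 8.06% of UMI, against 3.74% and 5.30%. Barcodes fell on both sides of a ribosomal share of 10%, with 221 of 336 and 232 of 445 members under it. Other barcodes with fewer than 4 R-spondin UMI were therefore drawn to match the members in bins of UMI and ribosomal share, 678 in replicate 1 and 587 in replicate 2. The match was partial: the drawn barcodes had medians of 6091 and 7200 UMI and a median ribosomal share of 4.29% and 10.8%, against 4.38% and 8.06% in members, and reached 40625 and 60195 UMI. Against these, 741 of 12725 genes were called higher (5.82%) and 1063 lower (8.35%), 14.2% in all. FOXA2 was at 436 and 430.2 CPM in members and 139 and 153 CPM in matched barcodes (log2 fold change 1.52 ± 0.075 SE, adjusted p = 2.6e-07, edgeR), and SLIT1, SOX6 and NES were also called higher. NWD2, PDE5A, CATHL5, PPM1H, SLIT1 and FREM2 were the 6 named rises there, at log2 fold changes of 1.54 to 1.90.

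Within classes of ribosomal share some changes had other sizes, though the difference between classes was not tested. SOX6 was at 593 and 665 CPM in members under 10%, against 182 and 189 CPM in the others, a log2 fold change of 1.84. At 10% or more it was at 343 and 316 CPM in members and 183 and 228 CPM in the others, a log2 fold change of 0.58. SHH had higher levels in barcodes of 10% or more, at 134 and 134.5 CPM in members and 60.8 and 53.4 CPM in the others, than under 10%, at 30.2 and 36.8 CPM in members and 10.8 and 15.2 CPM in the others. Under 10% the mitochondrial share of UMI had a median of 0.751% and 0.701% in members and 0.383% and 0.385% in the others. Its part in these results was not tested.

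**Figure D5:**
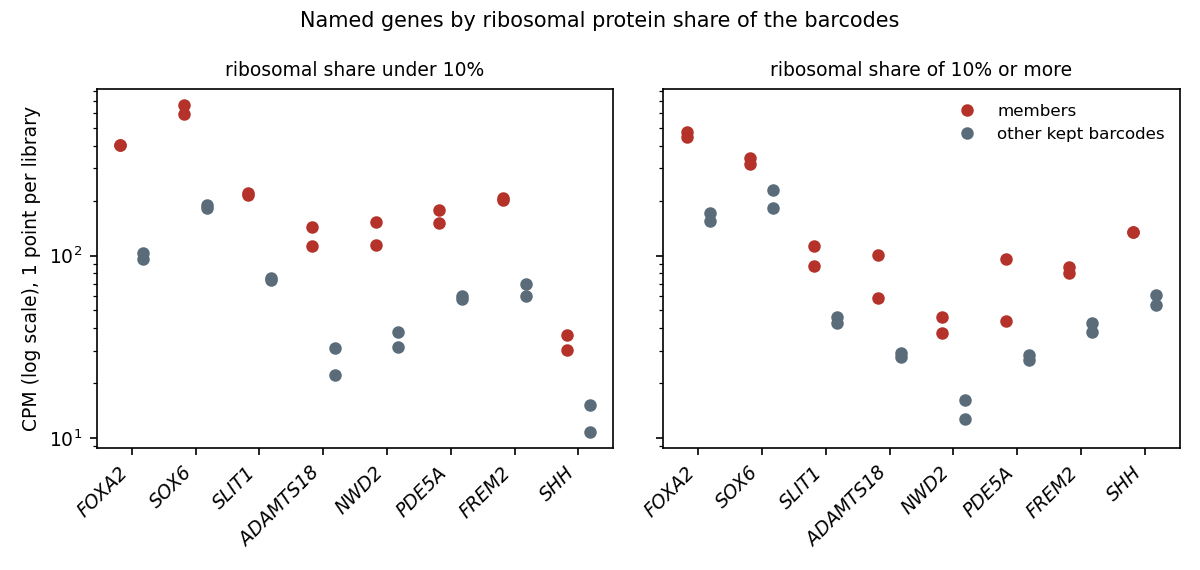
CPM, on a log axis, of 8 named genes in barcodes with a ribosomal protein share under 10% (left panel) and of 10% or more (right panel), with 1 point per library, members left of other kept barcodes for each gene. Members lie above the others in all 8 genes in both panels, with the gap for SOX6 smaller on the right. The 8 genes were picked from the named rises.

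GFP was counted in members at 1788 and 2475 CPM, against 1598 and 1607 CPM in the other kept barcodes (log2 fold change 0.44 ± 0.107 SE, adjusted p = 0.000625, edgeR). The 2 member libraries differed more from each other than replicate 1 members did from the others, with a log2 difference of 0.19 in replicate 1 and 0.67 in replicate 2. DESeq2 did not call GFP (adjusted p = 0.477), nor did edgeR without the library block (adjusted p = 0.408). It was not called against matched barcodes, which had 1761 and 1881 CPM (log2 fold change 0.16, adjusted p = 0.155, edgeR). Against R-spondin barcodes, which had 1356 and 1470 CPM, it was called higher in members (0.32, adjusted p = 0.0162, edgeR), a call that DESeq2 did not make. Level went with ribosomal share: GFP was at 635 and 835 CPM in members under 10% and 3235 and 3446 CPM in members of 10% or more, against 679 and 709 CPM and 2640 and 2203 CPM in the others of the same classes.

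Some cell cycle genes were called higher against all other kept barcodes, by small amounts. Of 32 S phase genes 10 were called higher, and of 52 genes of G2 and M phase 12, with median log2 fold changes of 0.20 and 0.17. The shares over all tested genes were 10.1% higher and 10.6% lower. Among them was POLA1, a DNA polymerase subunit, at 180.3 and 153 CPM in members and 129.7 and 112 CPM in the others. DESeq2 called 0 of these genes. None of 76 ribosomal protein genes was called against all other kept barcodes, by edgeR or by DESeq2, with 1 at an unadjusted p under 0.05. Of 29 stress and dissociation genes 10 were lower, among them KLF6 at 113 and 119 CPM in members and 172 and 183 CPM in the others.

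Set among like cells, 207 and 320 SOX2-positive members were compared with 726 and 926 other SOX2-positive barcodes with fewer than 4 R-spondin UMI. Here 480 of 12353 genes were called higher (3.89%) and 477 lower (3.86%), 7.75% in all, and DESeq2 called 134 and 77. FOXA2 was at 478 and 449.8 CPM in members and 184 and 189 CPM in the others (log2 fold change 1.42 ± 0.094 SE, adjusted p = 2.41e-09, edgeR). SHH, SOX6, SLIT1, SLIT2, FOXP1 and NES were also called higher, while RFX4 was not called (adjusted p = 0.28, edgeR). PAX3 was called lower, at 47.8 and 45.5 CPM in members and 193 and 165 CPM in the others (-1.81 ± 0.126). None of 10 tested mesenchyme genes was called by either tool, and 0 had an unadjusted p under 0.05. Cell cycle genes had median log2 fold changes of -0.02 (S phase) and 0.02 (G2 and M phase), with 2 S phase genes lower and no call among 52 genes of G2 and M phase, where 3 were higher and 3 lower at an unadjusted p under 0.05 and DESeq2 called 0.

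The named rises among SOX2-positive barcodes included genes that were not called higher against all other kept barcodes. ESRRG, a nuclear receptor, was at 143 and 172 CPM in members and 54.5 and 48.8 CPM in the others (log2 fold change 1.74 ± 0.128 SE, adjusted p = 6.56e-09, edgeR). Against all other kept barcodes ESRRG was at 178 and 205 CPM in members and 129 and 89.4 CPM in the others, higher in both libraries without a call (adjusted p = 0.133, edgeR). KRT19 and KRT18, keratins of simple epithelia, were at 173 and 146 CPM and 115 and 76.3 CPM in members, against 58.0 and 52.3 CPM and 30.6 and 34.8 CPM in the others. Against all other kept barcodes KRT19 had the opposite sign and was called lower, at 143 and 147 CPM in members and 374 and 608 CPM in the others. CATHL5, NWD2 and ADAMTS18 were the other named rises. SOX2-positive members were deeper, with medians of 7393 and 8025 UMI, than the other SOX2-positive barcodes, with 5567.5 and 6287.5 UMI, and in replicate 2 had a median ribosomal share of 17.2%, against 5.81%. The part of these differences in the keratin and ESRRG values was not tested.

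The named falls among SOX2-positive barcodes were PENK, SRRM4, KIRREL3, DCC, SCG3 and GNG2. PENK, which encodes the enkephalin precursor, was at 0 and 2.31 CPM in members and 108 and 53.1 CPM in the others, a fall that neither DESeq2 nor limma-trend called. SRRM4, a splicing factor of neurons, was at 14.9 and 6.94 CPM in members and 88.4 and 72.0 CPM in the others (log2 fold change -2.85 ± 0.202 SE, adjusted p = 4.5e-09, edgeR). DCC, the netrin receptor, was at 24.5 and 17.7 CPM in members and 111 and 94.7 CPM in the others. The log2 fold changes of KIRREL3, SCG3 and GNG2 were -2.62 to -1.91. Of 18 neuron genes 11 fell here too, and HES5 was at 49.7 and 34.7 CPM in members and 132 and 160.3 CPM in the others. In this comparison 9 of 57 oxidative phosphorylation genes were called higher, of which DESeq2 called 0. Shares over all genes tested there were 3.89% higher and 3.86% lower.

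Members were last set against the 111 and 174 R-spondin barcodes, which the rule keeps apart. Of 11572 genes 1392 were called higher (12%) and 1876 lower (16.2%), 28.2% in all. SHH was at 76.3 and 98.2 CPM in members and 1.05 and 4.93 CPM in R-spondin barcodes, and FOXA2 was at 436 and 430.2 CPM against 54.5 and 83.7 CPM (log2 fold change 2.34 ± 0.167 SE, adjusted p = 3.24e-06, edgeR). OPCML, a cell adhesion protein, was at 238 and 221 CPM in members and 29.4 and 34.5 CPM in R-spondin barcodes. ADAMTS18, CATHL5 and SPHKAP were the other named rises.

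Genes of mesenchyme were higher in the R-spondin barcodes as a sum, though a minority of these barcodes carried them. COL1A1 was at 19.1 and 47.7 CPM in members and 2306 and 2946 CPM in R-spondin barcodes. It had a UMI in 9.52% and 15.5% of members and in 22.5% and 27.6% of R-spondin barcodes, of which 64.0% and 61.5% had a SOX2 UMI. In the sums, 9 of 10 mesenchyme genes were lower in members. AQP1, a water channel of choroid plexus and vessels, was at 0.908 and 1.22 CPM in members and 176 and 201 CPM in R-spondin barcodes. SOD3, an extracellular superoxide dismutase, had 0 UMI in members and 250 UMI in R-spondin barcodes, and by the same floor it was at least 165-fold lower. KLK1, ACP5 and CCN4 completed the named falls. Cell cycle genes were higher in members here, with 16 of 32 S phase and 24 of 52 G2 and M phase genes called, of which DESeq2 called 2 and 6. Ribosomal protein genes were lower in 75 of 76 cases and oxidative phosphorylation genes in 45 of 57. Beside these counts, 12% of all genes tested here were called higher and 16.2% lower. The R-spondin barcodes were deeper, with medians of 8567 and 10778 UMI, against 6197.5 and 7146 UMI in members, and had a median ribosomal share of 11.6% and 24.4%, against 4.38% and 8.06% in members.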

How the data were processed

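The authors deposited whole-number UMI counts for 17846 genes in 4437 barcodes of 2 libraries, per the labels made with the Chromium 3' kit v3.1. Per the submitters' processing notes the build was bosTau9, and the tools named are Seurat 4.3.0, R 4.1.2 and Cell Ranger. Deposited barcodes reached at most 4.98% mitochondrial counts. The prefix of each column name gave its library, and 0 columns belonged to other samples. XIST was not analysed here.

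The members and gene lists were chosen with earlier results of these data known. Raw counts were summed per library and arm and fitted with edgeR 4.0.16 (TMM, filterByExpr, robust glmQLFit, library as a term, R 4.3.3), with limma 3.58.1 and DESeq2 1.42.0 as alternatives. Named genes were those called against all other kept barcodes and against matched barcodes, in the same direction, with at least 50 CPM in the higher arm of both libraries, leaving out the 8 genes of the rule, GFP, mitochondrial, ribosomal protein and unnamed genes: the 14 largest rises and 10 largest falls. Other comparisons gave up to 6 of each without the matching condition, and lists gave up to 4 examples by mean level, called genes first. A few list examples are not reported here. Matching used 5 bins of each measure and seed 1. On data simulated for the comparison with all other kept barcodes, over 13419 genes, the fit recovered 58.5% of 1.5-fold, 85.5% of 2-fold and 99.5% of 4-fold changes, with 4, 11 and 2 false calls. For the comparison with R-spondin barcodes, over 11580 genes, it recovered 22%, 72.5% and 96.5%, with 9, 7 and 0 false calls. False calls numbered at most 16 in the other comparisons. The simulated counts took their spread from the same fit and had no library effect, and only genes with higher counts were changed. They therefore give no rate of false calls for the real data. The library term pairs the members and other barcodes of the same library, as the design has it.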

Additional observations from a re-analysis of the deposited data

How the results depend on the processing

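All 24 named genes of the comparison with all other kept barcodes kept their direction and their call under DESeq2, RLE size factors, no filter on low counts, a sum of 6 or more UMI, a minimum of 3000 UMI and others without R-spondin barcodes. Of the 24, limma-trend lost 2 (KLK1 and A2M) and the fit without the replicate block 3 (PAG2, KLK1 and COL1A2). Among alternatives added after seeing the data, leaving out barcodes with FOXA2 or SHH lost CATHL5 among the 22 genes still tested (adjusted p = 0.216, edgeR) and a ribosomal share of 10% or more lost A2M, while leaving out the globin-rich barcodes kept all 24 and gave 1315 and 1381 calls, and 854 and 947 against matched barcodes. Counts of calls, higher and lower, were less stable. Against all other kept barcodes, where the main counts were 1356 and 1423, they were 235 and 348 with DESeq2, 317 and 662 with no replicate block, and 634 and 623 without FOXA2 or SHH barcodes. The count of higher genes was 901 at 3000 UMI or more, 900 at no more than 15000 UMI and 555 at a ribosomal share of 10% or more, and that of lower genes 756 under 10%. Against matched barcodes they were 207 and 284 with DESeq2 and 141 and 438 with no block, among SOX2-positive barcodes 134 and 77 and 235 and 302, and against R-spondin barcodes 202 and 737 and 458 and 975. With a sum of 6 or more, 766 genes were lower among SOX2-positive barcodes. The causes were not tested. The share of members was 17.7% over all deposited barcodes, 21.3% at 3000 UMI, 16.7% at a sum of 6 and 7.65% after thinning, and 18.2% to 19.2% with each library left out. Leaving out a library gives no count of calls, since 1 library has no residual degrees of freedom.

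Signs changed for list examples. Without FOXA2 or SHH barcodes the log2 fold change was 0.0011 for PAG1, -0.0906 for PCNA, -0.13 for TUBB4B, -0.0587 for HES1, 0.54 for ROBO1, 0.29 for ROBO2, -0.36 for ATP5MC2, -0.50 for RPS12 and -0.48 for RPS18. The last 3 were called there (adjusted p = 0.0361, 0.000493 and 0.00083, edgeR), though not among all kept barcodes. At a ribosomal share under 10% it was 1.10 for TTR, 0.45 for HBE2, 0.0126 for AHSP and 0.28 for UQCR11, without globin-rich barcodes 0.12 for HBE2, at a share of 10% or more -0.0386 for FGFR2, and at no more than 15000 UMI 0.0268 for UQCR11.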

Other observations

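Lists not described above held few or low genes in members. Against all other kept barcodes, 10.1% of all tested genes were called higher and 10.6% lower. Of 7 tested choroid plexus genes 5 were lower, of which DESeq2 called 1, and TTR was at 9.99 and 19.8 CPM in members and 10.2 and 44.9 CPM in the other kept barcodes. Of 9 neural crest and glia genes 3 were lower, TFAP2B at 9.99 and 3.65 CPM in members and 43.4 and 48.1 CPM in the others. Of 4 hepatic and yolk sac genes 3 were lower, while APOA1, which was at 151 and 199 CPM in members and 821 and 1370 CPM in the others, was called higher among SOX2-positive barcodes by edgeR and not by DESeq2, at 171 and 224 CPM in members and 123 and 183 CPM in the others. Of 6 cardiomyocyte genes 3 were lower, MYL7 among them, and ACTN2 and TNNI1 were higher, TNNI1 at 36.3 and 35.6 CPM in members and 17.9 and 16.7 CPM in the others. Of 4 endothelium genes 2 were lower, neither of them by DESeq2, KDR at 0.908 and 2.43 CPM in members and 4.84 and 8.81 CPM in the others. No paraxial mesoderm or muscle gene was called by edgeR or DESeq2 among 2 tested, with 0 at an unadjusted p under 0.05, and none of the pluripotency genes had enough UMI to be tested.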
